A study of Mus musculus with 4 samples.

Results

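The loci of Fli1 and Ets1 lie side by side on mouse chromosome 9. The sites described here are the DNase I peaks whose midpoint falls between 32200000 and 32620000 of build mm9, a window of 420 kb. They number 70 peaks of the 84735 in the 4 deposited lists, and they merge into 37 of 38986 accessible regions. Within the window the Fli1 interval was taken as about 32.23 to 32.35 Mb and the Ets1 interval as about 32.5 to 32.57 Mb. The members and their bounds were set by position and not by any peak value, though with earlier results of these data known.

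The libraries came from mice carrying an hCD2-Cre transgene, which acts in lymphocytes, and a Rosa26-lsl-GFP reporter that marks cells in which Cre has been active. The Tcf1-/-Lef1-/- libraries (DKO, 2 replicates) came from animals with both genes floxed, and the wild-type libraries (WT, 2 replicates) from animals with both genes intact. All libraries were made from GFP+ TCRbeta+ CD62Lhi CD44lo-med CD8+ T cells sorted from spleen and cultured over 72 h with the cytokines IL-15 and IL-7, which keep T cells alive without antigen. The labels give no age, and they leave unsaid if each replicate was a mouse of its own. Any p-value here then refers only to these libraries, and the spread between them may be technical. The lists name no genes, so the sorted cell type was not checked against marker loci here.

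Ets1 and Fli1 encode ETS-family transcription factors, proteins that bind a GGAA core through a winged helix-turn-helix domain. Ets1 is needed for normal T cell development and survival, and Fli1 is known for its role in megakaryocytes and as a brake on effector CD8+ T cell differentiation. The genes are transcribed away from each other, so the stretch between them faces both promoters. In T cells this neighbourhood is known as a hub of contacting enhancers. In the RefSeq gene table of GRCm38.p6 the long non-coding genes Gm31871 and Gm31928 lie between them. The snRNA gene Gm22060 lies within Fli1, and the next protein-coding gene beyond Fli1 is Kcnj1, which encodes a potassium channel. That table gives Fli1 a length of 121229 bp and Ets1 one of 121580 bp. The Ets1 length exceeds the Ets1 interval used here, so part of what is called the stretch between the genes may belong to Ets1 transcripts in that annotation.

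Whole lists differed in length before any locus was considered. The DKO lists held 34788 and 21353 peaks for replicates 1 and 2, and the WT lists 17521 and 11073. The genotypes also differed in calls on chromosome Y, with 55 and 57 peaks in DKO replicates 1 and 2 and 0 in both WT lists. Sex, list length and genotype cannot be told apart in any count over the full lists. Read totals are not given, and the lowest local background of a list, a sign of depth, was 1.23 and 1.15 fragments in DKO replicates 1 and 2 and 1.5 and 1.47 in WT replicates 1 and 2.

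More peaks were listed at the Fli1 and Ets1 loci in the DKO libraries than in the WT libraries. DKO replicate 1 had 34 peaks in the window and DKO replicate 2 had 17, against 12 in WT replicate 1 and 7 in WT replicate 2. Both DKO counts lay above both WT counts. The means were 25.5 ± 12 peaks in DKO and 9.5 ± 3.54 in WT (SD, n = 2 each). The means of the log2 counts differed by 1.39. An exact two-sided permutation test over the libraries gave p = 0.33, which is the smallest value that 2 against 2 allows. The peaks covered 6191 and 2776 bp in DKO replicates 1 and 2, against 1908 and 1015 bp in WT replicates 1 and 2 (exact permutation p = 0.33). Their median width was 174 and 148 bp in the DKO lists and 169.5 and 115 bp in the WT lists.

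As a share of its list the window held 0.0977% and 0.0796% of the peaks in DKO replicates 1 and 2, against 0.0685% and 0.0632% in WT replicates 1 and 2. The shares did not overlap between the genotypes (exact two-sided permutation p = 0.33). Their order was also the order of the list lengths, from DKO replicate 1 down to WT replicate 2. When every list was held to the 11073 peaks of highest −log10 p, the length of the WT replicate 2 list, the mean difference changed sign. The window then kept 5 and 4 peaks in DKO replicates 1 and 2, against 4 and 7 in WT replicates 1 and 2. These counts overlapped and did not separate the genotypes. The log2 difference was -0.24 (exact permutation p = 1.0). WT replicate 2 set the length and so could lose no peak, and DKO replicate 1 lost 29. At that length the window's share was 0.0452% and 0.0361% in DKO replicates 1 and 2 and 0.0361% in WT replicate 1. Each share was below that of the same library's full list. The locus thus held few of the most significant peaks of the longer lists.

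**Figure D1:**
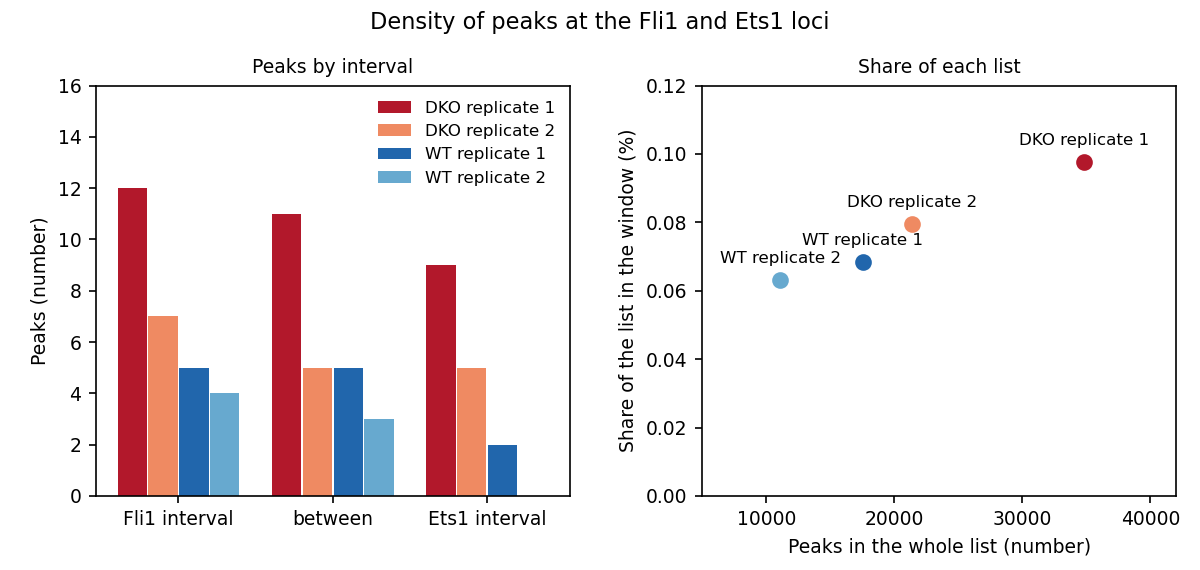
Peaks per interval (left, number) and the share of each whole list that lies in the window (right, percent) against the length of that list (number of peaks), for DKO replicates 1 and 2 and WT replicates 1 and 2. The share is 0.0977% and 0.0796% in the DKO lists and 0.0685% and 0.0632% in the WT lists, in the order of the list lengths.

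The locus was dense in every library. Fixed windows of 420 kb along all chromosomes, 6292 in number, held a mean of 6.2 union regions, and the Fli1 and Ets1 window held 37, or 5.97 times the mean. In all, 36 fixed windows (0.572%) held as many. In DKO replicate 1 the 34 peaks were 6.15 times the mean of the fixed windows, and in DKO replicate 2 the 17 peaks were 5.01 times the mean. In WT replicate 1 the 12 peaks were 4.31 times the mean, and in WT replicate 2 the 7 peaks were 3.98 times the mean. Windows with as many peaks made up 0.572% and 2.69% in the DKO lists and 4.39% and 6.55% in the WT lists. These ranks describe the locus and are not a test. Neighbouring union regions in the window lay a median of 4503 bp apart, against 13908.5 bp over all chromosomes. Of the 36 gaps in the window, 19 were shorter than 5 kb and the longest was 51424 bp.

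The sites were unevenly spread along the locus. The Fli1 interval held 14 union regions, the stretch between the genes 12 and the Ets1 interval 9. Per 100 kb this was 11.7 in Fli1, 8.0 between the genes and 12.9 in Ets1. The order differed by library. DKO replicates 1 and 2 were densest in Ets1, at 12.9 and 7.14 peaks per 100 kb. WT replicates 1 and 2 were densest in Fli1, at 4.17 and 3.33, and had 2.86 and 0.0 in Ets1. The flank beside Fli1 held 2 regions, both listed in DKO replicate 1 alone, and the flank beside Ets1 held none in any library. Of 21 bins of 20 kb, 6 had no region at all. The fullest bin, 32300001 to 32320000 within the Fli1 interval, held 6 regions.

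In the Fli1 interval DKO replicates 1 and 2 had 12 and 7 peaks, against 5 and 4 in WT replicates 1 and 2. Between the genes the counts were 11 and 5 in DKO and 5 and 3 in WT, so the genotypes met at 5 there. The Ets1 interval had 9 and 5 DKO peaks, against 2 peaks in WT replicate 1 and 0 in WT replicate 2. The exact two-sided permutation p was 0.33, 0.67 and 0.33 for the 3 intervals. These counts come from the full lists, with 34788 and 21353 peaks in DKO and 17521 and 11073 in WT. Sex, list length and genotype cannot be told apart in them. At equal list lengths ranked by −log10 p, the Ets1 interval kept only the regions at 32513923 and 32553526. Each was then called in DKO replicate 1 alone. Whether the difference was larger at Ets1 than at Fli1 was not tested, and with 2 libraries a genotype it rests on counts of 0 to 12.

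**Figure D2:**
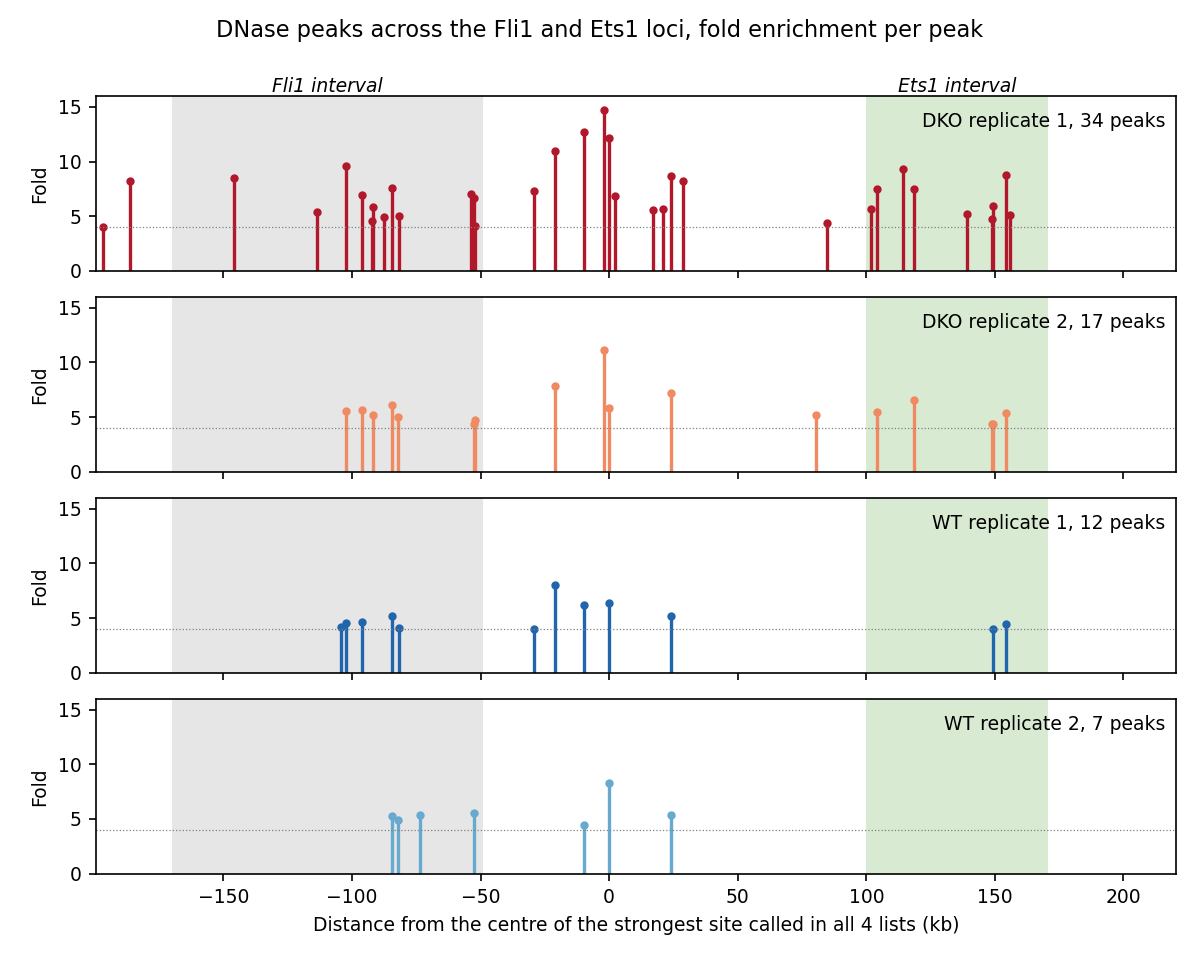
Fold enrichment of each peak (vertical axis, the authors' fold over local background) against its distance in kb from the centre of the strongest site called in all 4 lists, with 1 panel per library, DKO above WT. Grey and green mark the Fli1 and Ets1 intervals, and the dotted line marks a fold of 4, the lowest listed. The Ets1 interval holds 9 and 5 peaks in the DKO panels and 2 and 0 in the WT panels.

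Although dense, the sites had modest folds within every list, where the lowest fold was 4.0. The fold enrichment, the authors' own value for each peak, is the pileup of fragments at its summit over the local background, with 1 added to each. In DKO replicate 1 the peaks of the window ran from a fold of 4.03 to 14.7 with a median of 6.88, against a median of 8.50 for the rest of that list. In DKO replicate 2 they ran from 4.37 to 11.1 with a median of 5.45, against 7.24 for the rest. In WT replicate 1 they ran from 4.01 to 8.03 with a median of 4.61, against 6.43. In WT replicate 2 they ran from 4.46 to 8.31 with a median of 5.32, against 6.13. The window's median lay below the median of the rest in all 4 lists. Peaks above their own list's median numbered 9 of 34 and 2 of 17 in DKO replicates 1 and 2, and 1 of 12 and 1 of 7 in WT replicates 1 and 2. The strongest peak of the window ranked 4366 by fold in the DKO replicate 1 list and 3333 in DKO replicate 2, with rank 4647 in WT replicate 1 and 1760 in WT replicate 2.

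**Figure D3:**
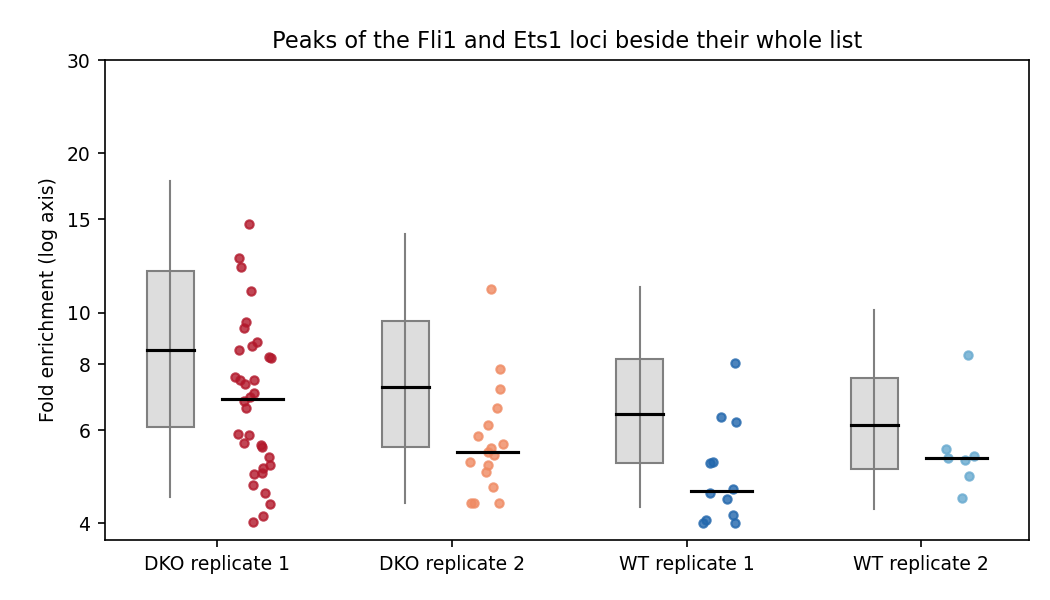
Fold enrichment (log axis) of every peak in the window (coloured points, black bar at the median) beside the whole list of the same library (grey box from the 25th to the 75th percentile, black bar at the median, line from the 5th to the 95th percentile). The window's medians are 6.88 and 5.45 in DKO replicates 1 and 2 and 4.61 and 5.32 in WT replicates 1 and 2, each below the median of its list.

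In all 4 libraries the median local background was higher at the sites of the window than in the rest of the list. The background under a peak and the pileup at its summit were solved from the deposited fold and p. Local background in the window had a median of 2.97 and 2.12 fragments in DKO replicates 1 and 2, and 2.45 and 2.49 in WT replicates 1 and 2. The rest of the same lists had medians of 1.79 and 1.63 for DKO and 2.1 and 2.0 for WT. Backgrounds above the median of the rest were found at 26 of 34 and 15 of 17 peaks in DKO replicates 1 and 2, and at 9 of 12 and 6 of 7 peaks in WT replicates 1 and 2. The median summit pileup was 24.5 and 16 fragments in the DKO lists and 16.5 and 18 in the WT lists, against 23 and 18 for the rest of the DKO lists and 19 and 18 for the rest of the WT lists. Pileup therefore stood above the rest of the list in DKO replicate 1, below it in DKO replicate 2 and WT replicate 1, and level with it in WT replicate 2. In every list the background was highest in a cluster of Fli1 sites between 32311780 and 32315339. There it reached 5.06 fragments in DKO replicate 1 and 3.24 in DKO replicate 2, against 3.62 in WT replicate 1 and 2.98 in WT replicate 2.

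**Figure D4:**
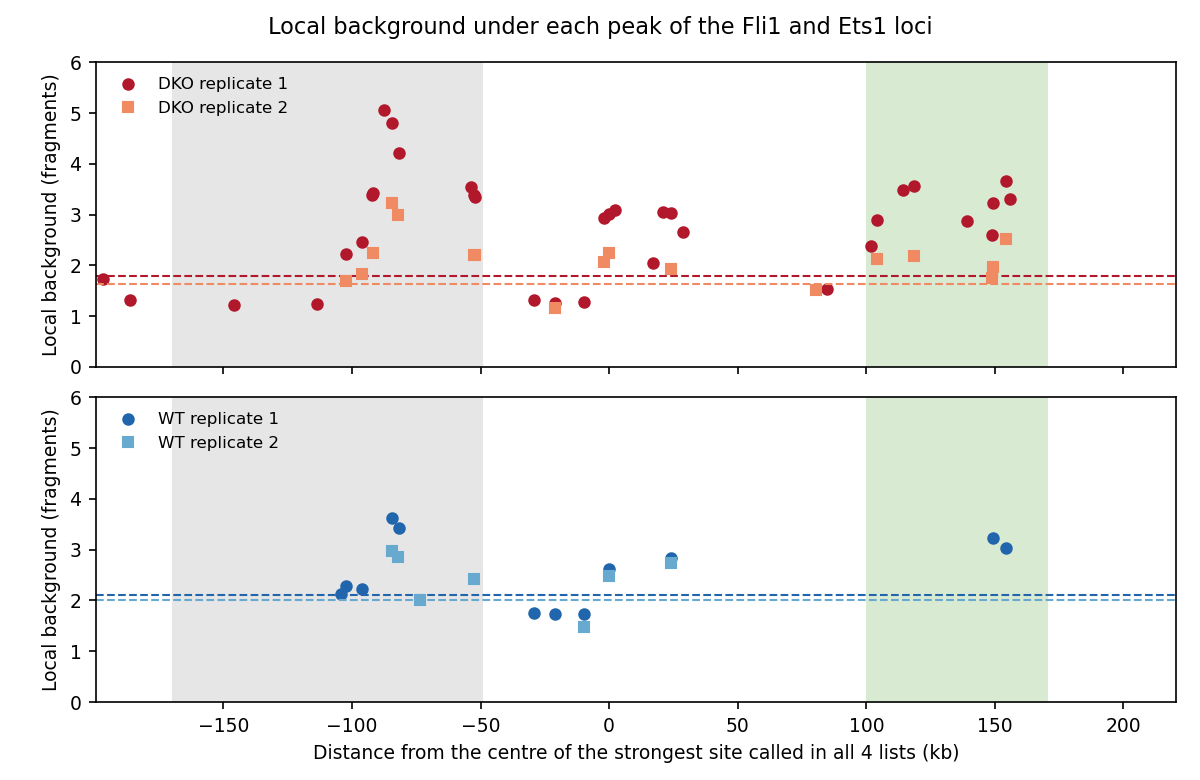
Local background in fragments (vertical axis) under each peak of the window against its distance in kb from the strongest site called in all 4 lists, for the DKO libraries (top) and the WT libraries (bottom). Grey and green mark the Fli1 and Ets1 intervals, and dashed lines mark the median of the rest of each list. The highest values, 5.06 and 3.24 fragments in DKO and 3.62 and 2.98 in WT, all lie in the same cluster of the Fli1 interval.

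Of the 37 regions, 4 were called in all 4 lists. That is 10.8% of the window, beside 20.7% of all union regions. The strongest of them by its lowest percentile lay between the genes, at 32399422 to 32399723. Its fold was 12.2 and 5.85 in DKO replicates 1 and 2, and 6.35 and 8.31 in WT replicates 1 and 2. Within their own lists these folds stood at percentiles 76.5 and 29.1 for DKO and 48.1 and 84.1 for WT, so the genotypes overlapped at this site. It was the strongest listed site of the window in WT replicate 2. Its summits lay within 18 bp of each other across the 4 libraries.

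The next shared site, at 32423621 to 32423845, also lay between the genes. Its fold was 8.67 and 7.18 in DKO replicates 1 and 2, and 5.23 and 5.36 in WT replicates 1 and 2. The percentiles were 52.0 and 49.3 in the DKO lists and 26.6 and 32.5 in the WT lists, and both DKO percentiles lay above both WT percentiles. Percentiles from lists of unequal length do not measure a change between genotypes. The summits of this site spanned 94 bp, at 32423787 and 32423775 in DKO and at 32423693 in both WT lists. Folds there were thus taken at different positions.

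Both other shared sites lay in the Fli1 interval, a few kb apart. The site at 32315057 to 32315339 had folds of 7.57 and 6.13 in DKO replicates 1 and 2, and 5.2 and 5.27 in WT replicates 1 and 2. Its summit pileups were 43 and 25 fragments in DKO and 23 and 20 in WT. The widest region of the window, 348 bp at 32317466 to 32317813, had folds of 4.99 and 5.01 in DKO and 4.06 and 4.92 in WT. It was also among the weakest, at percentiles 12 and 14.4 in the DKO lists and 0.9 and 21.4 in the WT lists. Its summits spanned 96 bp, at 32317499 and 32317501 in DKO and at 32317595 and 32317588 in WT. Those of the site at 32315057 spanned 137 bp. No region of the Ets1 interval was called in all 4 lists.

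A further 7 regions (18.9%) were called in 3 of the lists, beside 15.4% of all union regions. Of these, 5 lacked a call in WT replicate 2 alone (13.5%, beside 11.6% of all union regions), at 32297029, 32303352, 32378303, 32548773 and 32553526. The site at 32378303 to 32378533, between the genes, had folds of 11.0 and 7.83 in DKO replicates 1 and 2 and of 8.03 in WT replicate 1, where it was the strongest of the window. The site at 32297029 to 32297193 had the highest percentile of any Fli1 peak, 59.7 in DKO replicate 1. In DKO replicate 2 and WT replicate 1 the shared site at 32315057 stood highest in this interval, at 34.0 and 24.9, and in WT replicate 2 the site at 32346898, at 36.2. The site at 32297029 had folds of 9.61 and 5.56 in DKO replicates 1 and 2 and of 4.57 in WT replicate 1. In the Ets1 interval the site at 32553526 to 32553869 had folds of 8.81 and 5.38 in DKO and of 4.45 in WT replicate 1. Its neighbour at 32548773 to 32548891 had folds of 5.89 and 4.37 in DKO and of 4.01 in WT replicate 1, just above the lowest fold listed. These were the 2 WT peaks of the Ets1 interval.

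Both remaining sites of this kind were listed in both WT and DKO cells but missed another library. The site at 32389565 to 32389799 lacked a call in DKO replicate 2. It had a fold of 12.7 in DKO replicate 1, and folds of 6.21 and 4.46 in WT replicates 1 and 2. The site at 32346898 to 32347144, near the upper end of the Fli1 interval, the end from which that gene is transcribed, lacked a call in WT replicate 1. It had folds of 6.62 and 4.37 in DKO and of 5.54 in WT replicate 2. A missing call thus also separated replicates of the same genotype.

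DKO-only regions, called in both DKO lists and neither WT list, numbered 6 of 37. That share of 16.2% stood beside 14.3% of all union regions, so it was near the background. The strongest, at 32397637 to 32397764 between the genes, had a fold of 14.7 in DKO replicate 1 and of 11.1 in DKO replicate 2. This was the strongest site of the window in both DKO libraries, at percentiles 87.4 and 84.4, with summit pileups of 57 and 33 fragments and summits 9 bp apart. Among all 5593 DKO-only regions it ranked 155 by the lower of its 2 folds, an order that sets folds of both DKO lists side by side. The adjacent site at 32399422, under 2 kb away, was listed in both WT libraries. At equal list lengths the window held 11 regions, and the site at 32397637 was the 1 DKO-only region among them, beside 5.75% of all union regions at that length. None of the 11 was WT-only or called in all 4 lists, beside 4.61% and 29.3%.

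Of the other 5 DKO-only regions, 3 lay in the Ets1 interval. The site at 32518018 to 32518327 had folds of 7.46 and 6.61 in DKO replicates 1 and 2, with summits 2 bp apart. At the lower end of the interval, the side from which transcription of Ets1 runs, the site at 32503422 to 32503742 had folds of 7.46 and 5.45. Its summits lay 16 bp apart. The annotated Ets1 is longer than the interval, so its transcripts may start outside it. The site at 32548427 to 32548607 had folds of 4.72 and 4.37, and it stood at percentiles 8.2 and 4.9. Its summits lay 106 bp apart. The Fli1 interval held the remaining pair, at 32307817 to 32307925 with folds of 5.88 and 5.23, as well as at 32347220 to 32347365 with folds of 4.14 and 4.69. Summits of the DKO libraries lay 10 and 3 bp apart at these sites. All 5 stood below the median of both DKO lists. The DKO-only count was 22 without DKO replicate 2 and 11 without WT replicate 1, and leaving out a library can only raise it.

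WT-only regions numbered 0 of 37, beside 0.631% of all union regions, which is less than 1 region in a set of this size. The WT libraries listed 2 regions that neither DKO list held, each in a single library and both in the Fli1 interval. WT replicate 1 alone had 32295032 to 32295230, with a fold of 4.15, and such calls made up 4.28% of all union regions. WT replicate 2 alone had 32326051 to 32326162, with a fold of 5.32, and such calls made up 1.49%.

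The largest group was listed in DKO replicate 1 alone, with 16 of 37 regions (43.2%), beside 31.6% of all union regions. Of these, 2 lay in the flank beside Fli1, 5 in the Fli1 interval, 5 between the genes and 4 in the Ets1 interval. The strongest was 32513923 to 32514032, with a fold of 9.36 and a pileup of 41 fragments, and its percentile of 57.5 was the highest in the Ets1 interval in that library. In DKO replicate 2 the site at 32518018 stood highest there, at 41.3, and in WT replicate 1 the site at 32553526, at 9.0. In all, 23 of 37 regions (62.2%) had no WT call, beside 50.3% of all union regions. DKO replicate 2 alone listed 1 region, at 32479750 to 32479995, with a fold of 5.16, where single-library calls of DKO replicate 2 made up 4.3% of all union regions. The site at 32370257 to 32370369, between the genes, was shared by DKO replicate 1 (fold 7.32) and WT replicate 1 (fold 4.01) and by no other library.

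**Figure D5:**
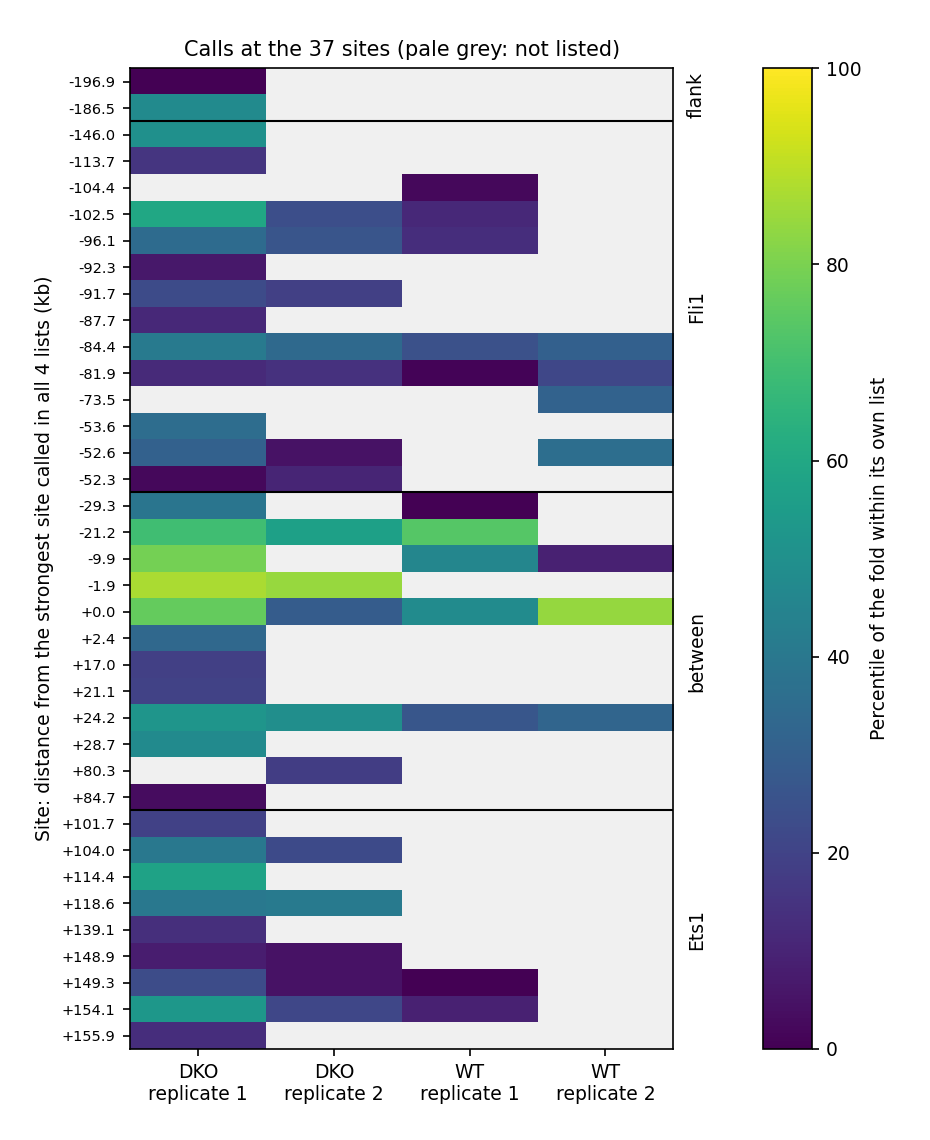
Percentile of each peak's fold within its own list (colour, 0 to 100) at the 37 union regions of the window, from top to bottom along the chromosome, in DKO replicates 1 and 2 and WT replicates 1 and 2. Pale grey cells had no listed peak and black lines part the intervals. In 4 rows all libraries are coloured, and 16 rows are coloured in DKO replicate 1 alone.

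Most peaks of each shorter list were found again in DKO replicate 1. Of the window's DKO replicate 2 peaks, 16 of 17 (94.1%) overlapped a DKO replicate 1 peak, beside 90.8% over that whole list. For WT replicates 1 and 2 the overlap with DKO replicate 1 was 11 of 12 (91.7%) and 6 of 7 (85.7%), beside 87.7% and 91.5%. In the other direction, 16 of the 34 DKO replicate 1 peaks (47.1%) overlapped DKO replicate 2, beside 55.3% over the whole list. They overlapped WT replicate 1 at 11 of 34 (32.4%) and WT replicate 2 at 6 of 34 (17.6%), beside 44.1% and 29.1%. The WT replicates overlapped each other at 5 of 12 peaks of replicate 1 (41.7%) and 5 of 7 of replicate 2 (71.4%), beside 51.2% and 80.9% over the whole lists.

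Skipped running numbers in the peak names were counted between the first and last listed peak of the window in each list. They numbered 1 in DKO replicate 1 and 3 in DKO replicate 2, against 2 in WT replicate 1 and 0 in WT replicate 2. In WT replicate 2 that span ran from 32315057 to 32423796. It covered neither the Ets1 interval nor the DKO-only site at 32307817, so skips there were not counted. Peaks with the skipped numbers are not in the lists used here, and their exact positions are not known. In DKO replicate 2 a number was skipped between 32347311 and 32378385, a stretch with a site at 32370257 that was listed in DKO replicate 1 and WT replicate 1. In WT replicate 1 a number was skipped between 32317766 and 32370262, a stretch with the site at 32346898 that was listed in the other 3 libraries. Another was skipped between 32399590 and 32423644 in WT replicate 1, and 1 between 32399624 and 32423694 in DKO replicate 2. The first of these stretches in WT replicate 1 also holds the DKO-only site at 32347220, so a WT replicate 1 peak there may be among those not listed. Neither of the WT replicate 1 stretches holds any of the other 5 DKO-only sites. In DKO replicate 1 the number was skipped between 32285913 and 32297029, a stretch with the site at 32295032 that WT replicate 1 alone listed. The remaining number in DKO replicate 2 was skipped between 32307903 and 32315072. An absent peak therefore means that a site is not in the list, and not that it was closed.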

How the data were processed

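DNase-seq was done on 2 DKO and 2 WT libraries of mouse CD8+ T cells. Per the submitters' processing notes, reads were handled with FastQC, Bowtie2 2.2.5 and MACS2 2.1.1 on build mm9. Not given in the sources used here are the settings, any control library and the handling of duplicates. Each library has its own list, so peaks were not called on pooled reads. For each peak the authors deposited a fold, a −log10 p, a −log10 q and a score of 10 times the −log10 q. The fold was taken as the ratio of summit pileup to local background, with 1 added to each. Folds of a site are given side by side for the libraries, but medians and percentiles were taken within a list and no fold was tested between lists. DKO-only regions were ordered by the lower of their 2 DKO folds. Starts were converted to count from 1.

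Peaks were assigned to the window by midpoint and merged into union regions where they overlapped by at least 1 bp. A percentile is the percent of peaks in the same list with a lower fold. Pileup and background were solved from fold and p (Poisson) for peaks with −log10 p under 250, and the pileup came out whole within 0.02 for 100% of them in each list. The solving, the merging and the exact permutation test were tested on simulated data. Named regions are those called in all 4 lists, the DKO-only regions, the strongest of each interval (highest percentile in any list) and the widest; other regions were named after their values were seen. The members, intervals and tests were chosen with earlier results of these data known. A planned motif search was not run, since sequences of these sites were not used here. The alternatives were a minimum −log10 q of 5 or 10, lists of equal length ranked by p or fold, any overlap with the window, merging within 500 bp, a peak covering at least 50% of the region, leaving out each library and the replicate number as a block. Python 3.11.15, pandas 2.3.3, numpy 2.4.6 and scipy 1.17.1 were used.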

Additional observations from a re-analysis of the deposited data

How the results depend on the processing

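The sign of the genotype difference at the Fli1 and Ets1 loci depended on list length, and at equal lengths the genotypes overlapped. With equal list lengths ranked by −log10 p, DKO minus WT was -0.24 for the log2 number of peaks, -0.00903 percentage points for the share of the list and -52.5 bp for covered length. Ranked by fold, these were -0.40, -0.0135 and -174 bp. Over the full lists they were 1.39, 0.0228 and 3022 bp. Under the other settings the direction held, and no setting could reach a p below 0.05. At a −log10 q of at least 5 the share overlapped between genotypes, at 0.0990 and 0.0678% in DKO replicates 1 and 2 and 0.0425 and 0.0710% in WT replicates 1 and 2.

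Regions called in all 4 libraries fell to 0 at a −log10 q of at least 10, at either equal length, and where a peak had to cover at least 50% of the region. DKO-only regions fell to 1 at either equal length. Leaving out 1 library gave DKO minus WT differences of 0.89 to 1.89 in the log2 number of peaks. The differences were 0.0138 to 0.0319 percentage points in share and 1314.5 to 4729.5 bp in covered length. There were then 4 to 9 shared regions, 7 to 22 DKO-only regions and 0 to 1 WT-only regions. Without DKO replicate 1 the log2 difference was lowest, and without WT replicate 2 the shared regions numbered 9. Leaving chromosomes X, Y and M out of the lists, a setting added after seeing the data, gave a share difference of 0.0235.

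The labels do not say that replicate numbers mark pairs. With the replicate block the differences were again 1.39, 0.0228 and 3022 bp (exact sign-flip p = 0.5 each), and over 38986 union regions the replicate 1 minus replicate 2 calls of DKO and WT correlated at r = -0.074. Depth is unknown, so a site missing from a list may lie just under its limits.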
